A study of Mus musculus with 8 samples.

Results

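The 39 genes described here act in DNA replication and in mitosis, and were taken as a list of gene symbols with a filter on the mean level. Each symbol named 1 locus of the table, and all 39 were among the 16908 loci with a mean TPM of 0.5 or more (TPM is transcripts counted per fixed total, a share of each library corrected for transcript length). The genes were followed in muscle stem cells, the cells that rebuild skeletal muscle after injury, after a 1 h pulse of a bone morphogenetic protein (BMP). Cells came from the muscle of wild-type female C57BL/6J mice aged 6 to 8 weeks and were expanded for 2 days on Matrigel. Serum was then withdrawn for 6 h in all 4 groups, and BMPR-IA/ALK3-Fc, a soluble receptor that traps BMPs, was added at 200 ng/ml, so the vehicle cultures are BMP-starved and not merely untreated. Cells of isolations 48 and 54 received vehicle (vehicle_a) or 100 ng/ml BMP4, and cells of isolations 75 and 77 received vehicle (vehicle_b) or 100 ng/ml BMP6. The vehicle was 4 mM HCl with 0.1% BSA. Each group holds 2 libraries, 1 per isolation, and how many mice went into an isolation is not given in the sources used here. Since BMP4 and BMP6 were tested on different isolations, the ligand, the experiment and the isolations cannot be told apart.

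Cells copy their DNA once per division. Origins are licensed when CDC6 and CDT1 load the MCM helicase, and the fork then needs GINS, the sliding clamp PCNA and a supply of deoxynucleotides from ribonucleotide reductase and thymidylate synthase. Cyclins E and A with CDK2 drive S phase, and cyclins A and B with CDK1 drive mitosis. E2F factors switch on the replication genes once the RB family of pocket proteins lets go of them, while B-MYB (Mybl2) and FOXM1 act later on the mitotic genes. In muscle, leaving this cycle goes with the start of differentiation, and BMP signalling is known for keeping activated muscle stem cells dividing.

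The promoters are shown first, with the motifs known for genes of replication and of mitosis. RefSeq (GRCm38.p6) gave the bases before the start for 31 of the 39 genes. Ccna2, Tpx2, Mcm4, Cdc25c, Foxm1, Gins2, Ccne2 and Aurkb had no entry. In the 250 bases before the start, both strands were searched for the CCAAT box (CCAAT), for the cell cycle homology region that B-MYB and FOXM1 complexes use (CHR, TTTGAA or TTCGAA) and for E2F sites (TTTCGCGC, TTTGGCGC or TTTCCCGC). The mitosis genes were taken as the cyclins A and B, Cdk1, Cdk2, Mybl2, Foxm1 and the mitotic and chromosome genes, and the replication genes as all others, Chek1 among them. A CCAAT box stood in 14 of 16 mitosis promoters (87.5%) and 9 of 15 replication promoters (60%), against 37.4% of the promoters of tested loci and 34.5% of all promoters in the table. A CHR stood in 7 of 16 mitosis promoters (43.8%) and 2 of 15 replication promoters (13.3%), against 12.3% of tested loci and 17.4% of all. An E2F site stood in 2 of 16 mitosis promoters (12.5%) and 4 of 15 replication promoters (26.7%), against 3.17% of tested loci and 1.59% of all. The 2 mitosis promoters were those of Cdk1 and of Cdk2, and CDK2 also drives S phase, so this contrast depends on the grouping. The difference between mitosis and replication promoters was not tested. A match is a description of the letters and not a bound site.

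Of these promoters, 5 are printed 5′ to 3′ on the gene's strand, from 250 bases before the start to the base before it. For 23 of the 31 promoters, bases just after the start were found in a GENCODE transcript of the gene. They were not found for Cdk2 and Mcm6, whose start and strand rest on RefSeq alone. Matches are in capitals, and ATTGG is the CCAAT box read on the other strand. Ccnb2 (chr9:70421555-70421804, minus strand) and Cdk2 (chr10:128705052-128705301, minus strand) are shown because their levels differed between the vehicle cultures. Cdc20 (chr4:118437344-118437593, minus strand) is one of the mitotic genes with values below vehicle in both BMP4 isolations. Cdk1 (chr10:69352913-69353162, minus strand) holds all 3 kinds of match, as Mcm7 does, and Mcm6 (chr1:128359706-128359955, minus strand) the most E2F matches of the 31, with 2 of them overlapping on opposite strands.
Ccnb2: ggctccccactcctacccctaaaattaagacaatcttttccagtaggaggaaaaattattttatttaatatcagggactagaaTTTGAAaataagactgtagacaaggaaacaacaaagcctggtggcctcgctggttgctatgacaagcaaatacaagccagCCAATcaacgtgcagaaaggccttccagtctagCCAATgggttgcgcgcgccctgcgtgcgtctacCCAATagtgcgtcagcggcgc
Cdc20: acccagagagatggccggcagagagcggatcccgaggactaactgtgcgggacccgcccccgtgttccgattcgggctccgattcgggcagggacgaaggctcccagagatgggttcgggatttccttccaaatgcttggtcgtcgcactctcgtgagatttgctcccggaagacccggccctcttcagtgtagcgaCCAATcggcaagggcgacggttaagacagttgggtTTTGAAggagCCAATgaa
Cdk1: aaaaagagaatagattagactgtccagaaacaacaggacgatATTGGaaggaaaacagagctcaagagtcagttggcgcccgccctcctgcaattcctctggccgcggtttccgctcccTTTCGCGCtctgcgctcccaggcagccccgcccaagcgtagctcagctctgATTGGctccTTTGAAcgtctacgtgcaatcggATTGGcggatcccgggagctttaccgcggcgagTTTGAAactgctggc
Cdk2: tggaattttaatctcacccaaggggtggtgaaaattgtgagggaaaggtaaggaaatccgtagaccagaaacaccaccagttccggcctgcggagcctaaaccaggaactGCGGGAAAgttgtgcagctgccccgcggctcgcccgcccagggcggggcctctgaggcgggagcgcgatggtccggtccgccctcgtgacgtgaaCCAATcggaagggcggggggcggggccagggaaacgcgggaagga
Mcm6: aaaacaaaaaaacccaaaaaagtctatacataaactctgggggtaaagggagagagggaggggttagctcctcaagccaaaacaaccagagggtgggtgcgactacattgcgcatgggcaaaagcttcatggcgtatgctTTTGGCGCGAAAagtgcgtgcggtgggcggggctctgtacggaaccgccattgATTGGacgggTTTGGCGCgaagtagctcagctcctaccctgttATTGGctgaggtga
In Cdc20 the CHR begins 18 bases before the start and a CCAAT box begins 53 bases before it, while in Ccnb2 the CHR lies upstream of all 3 CCAAT boxes, beginning 167 bases before the start. The E2F match of Cdk2 reads on the strand opposite to the gene. No match of any kind was found in the windows of Birc5, Ccne1, Cdt1, Chek1, E2f1, Mybl2 and Tyms. For E2f1, Mybl2 and Tyms, as for some other genes, the start used was not at the gene's outer edge. Bases before other starts were not searched, so a missing match holds for the window alone.

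All 39 genes were read in every library. Mean levels ran from 9.31 TPM for Cdc25c, the phosphatase that activates CDK1, to 391.3 TPM for Rrm2, the regulated subunit of ribonucleotide reductase. The summed level of the 39 genes was 2189.7 and 1595.9 TPM in the vehicle_a libraries of isolations 48 and 54, and 2381.4 and 2178.9 TPM in the vehicle_b libraries of isolations 75 and 77. After BMP4 it was 2188.5 TPM in isolation 48 and 1529.7 TPM in isolation 54. After BMP6 it was 2464.5 TPM in isolation 75 and 2228.6 TPM in isolation 77. The sum in isolation 54 was thus the lowest with vehicle and with BMP alike. Within each isolation the vehicle and the BMP library stood close together.

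**Figure D1:**
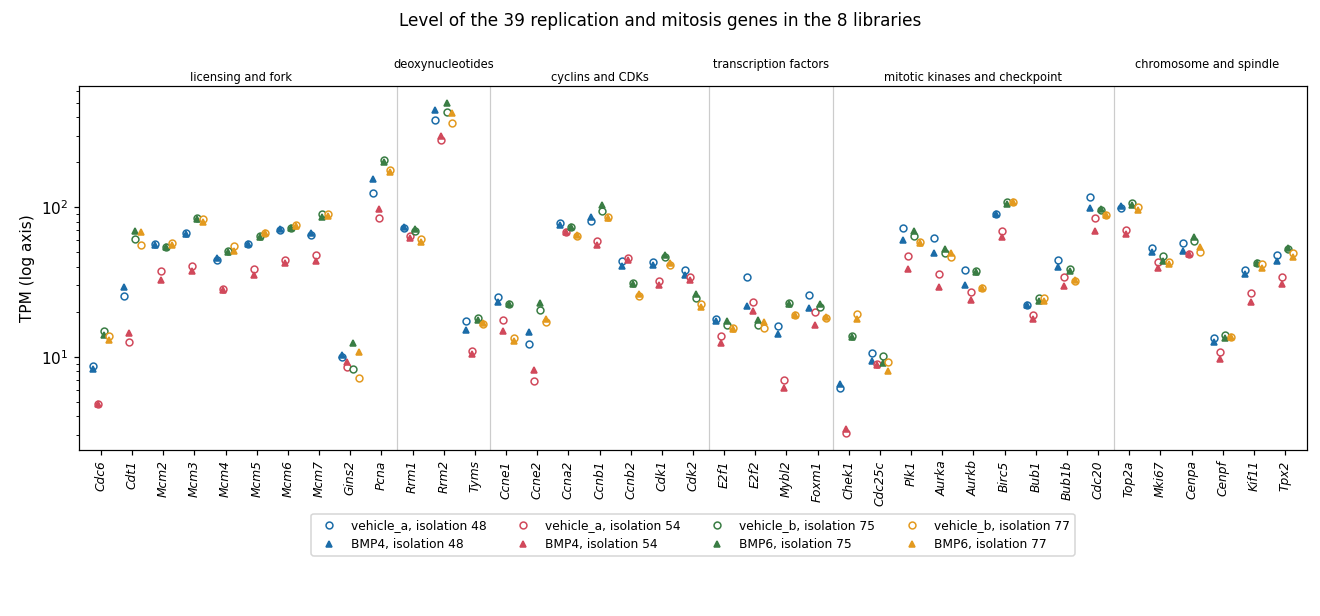
Level of each of the 39 genes in TPM (log axis) in the 8 libraries, ordered by role. Open circles are vehicle and filled triangles BMP libraries, with 1 colour per isolation. The 2 symbols of one colour lie close together for most genes, and isolation 54 is below isolation 48 in all genes but Ccnb2.

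The libraries were estimated from the coverage at 48012828 to 58002740 reads. The BMP pulse was visible in Id1, a direct BMP target, which went from 149.4 to 349.4, from 100.0 to 364.7, from 103.3 to 379.2 and from 116.7 to 403.2 TPM in isolations 48, 54, 75 and 77 (mean log2 change 1.68, SE 0.13, limma adjusted p = 0.0212). Of 8 markers of muscle stem cells and myoblasts 7 passed the filter (Pax7 at 11.1 to 16.9 TPM), while Calcr stayed at or below 0.279 TPM. Of 23 markers of fibro-adipogenic, endothelial, immune, mural and adipocyte cells, 5 reached the mean of 0.5 TPM, and Ptprc, Adgre1, Adipoq and Lep were at 0 in all 8 libraries. All 4 Schwann cell markers reached it, with sums of 4.25 to 9.82 TPM. Fewer cells of a kind and less RNA per cell cannot be told apart in such bulk libraries.

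For most of the 39 genes the isolations lay further apart than vehicle and BMP did. In the vehicle libraries isolation 54 stood below isolation 48 for 38 of 39 genes, against 57.6% of all loci tested, with a median log2 difference of -0.46 (all loci -0.07). The range ran from -1.13 for Mybl2 to 0.07 for Ccnb2, the 1 exception. In the BMP4 libraries of the same isolations 38 of 39 genes were lower too, with a median of -0.51 (all loci -0.03). In vehicle and in BMP4 alike 38 genes were lower, against 45.8% of all loci. As the isolations are the same, this is no independent repeat. The difference between the vehicle libraries of isolations 48 and 54 was larger than the BMP4 change in either isolation for 37 of 39 genes (59.7% of all loci), the exceptions being Ccnb2 and E2f2. Isolations 75 and 77 were closer, with a median of -0.13 for 77 minus 75 in vehicle (all loci -0.02). Still, 32 of 39 genes were lower in isolation 77. With BMP6, 31 of 39 were lower there, with a median of -0.17 (all loci -0.03). The difference of isolations 75 and 77 in vehicle exceeded the BMP6 change for 27 of 39 genes (55.1% of all loci). These are values of single libraries and carry no test.

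Markers of muscle differentiation also differed between the isolations. The 9 markers fixed for differentiating muscle summed to 5009.7 TPM in the vehicle library of isolation 48, to 16637.2 TPM in isolation 54, and to 482.6 and 686.9 TPM in isolations 75 and 77. Myog, the factor that starts terminal differentiation, was at 1301.1, 2153.8, 109.6 and 142.7 TPM in the same libraries. Cdkn1a, the CDK inhibitor p21, was at 466.2, 800.7, 154.5 and 150.7 TPM. Isolation 54, with the lowest sum of replication and mitosis genes, had the highest sum of differentiation markers, in vehicle and in BMP4 alike. Isolations 48 and 77 had nearly the same sum of the 39 genes in vehicle (2189.7 and 2178.9 TPM) beside very different marker sums. Their part in the levels of the 39 genes was not tested.

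**Figure D2:**
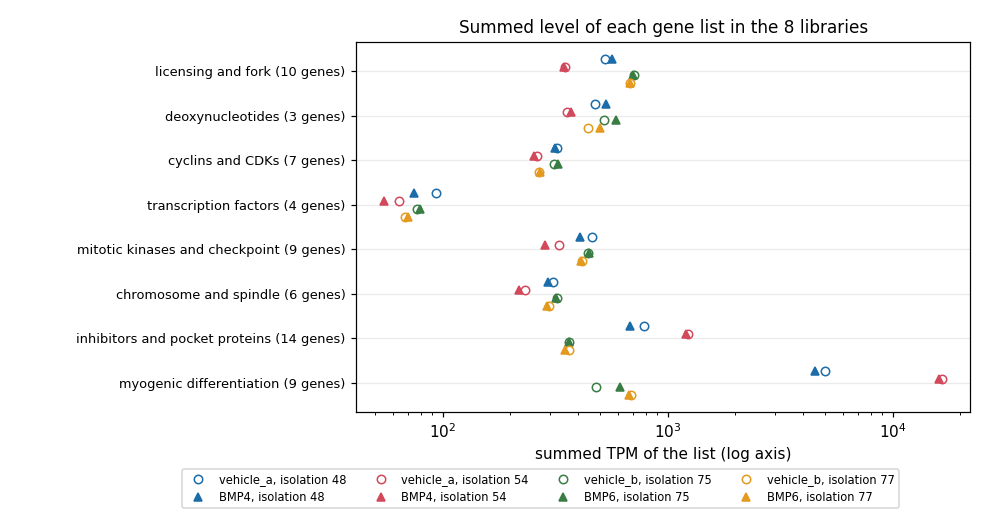
Summed TPM (log axis) of the 6 role lists, of the inhibitors and pocket proteins and of the differentiation markers, with 1 symbol per library. Differentiation markers lie between 482.6 and 16637.2 TPM, highest in isolation 54, where the licensing and fork genes are lowest at 346.0 and 348.9 TPM.

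The unstimulated cultures of the BMP6 experiment were compared with those of the BMP4 experiment to describe the state from which each response began. Chek1, Cdt1 and Cdc6 were higher in vehicle_b, and Ccnb2, Cdk2 and E2f2 were lower. In all, 6 of 39 genes passed an adjusted p of 0.05 (15.4%), against 27.2% of all loci, by limma on log2(TPM + 0.5). Of these, 3 rose (10.6% of all loci were higher) and 3 fell (16.6% of all loci were lower). The share of the 39 genes is under that background, and nothing is read from it. The median difference of the 39 genes was 0.27 (all loci -0.01), with 28 positive. Both vehicle_b libraries stood above both vehicle_a libraries for 18 genes (46.2%, all loci 34.9%) and below them for 4 genes (10.3%, all loci 38.8%).

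Origin licensing and fork genes had a median difference of 0.63, and 2 of 10 passed, both higher. Cdt1, the licensing factor that brings the MCM helicase to origins (GRCm39 chromosome 8, 123294754 to 123299867), was at 25.6 and 12.6 TPM in vehicle_a and at 61.6 and 56.2 TPM in vehicle_b. The groups did not overlap, and the lowest value was that of isolation 54. The log2 difference was 1.68 (SE 0.40, limma adjusted p = 0.0301). Cdc6, the partner of CDT1 in loading the helicase (chromosome 11, 98798627 to 98814762), was at 8.69 and 4.84 TPM against 14.8 and 13.7 TPM. Its groups did not overlap either (log2 difference 1.07, SE 0.32, limma adjusted p = 0.0485), but the call was lost with the 4 vehicle libraries alone (limma adjusted p = 0.0606). Pcna, the sliding clamp, was at 125.1 and 85.2 TPM against 206.0 and 177.1 TPM, and missed the threshold (0.88, SE 0.26, limma adjusted p = 0.0507). Its value is uncertain, since the processed copy Pcna-ps2 was listed at a like level, from 95.9 to 219.7 TPM. The 6 helicase subunits Mcm2 to Mcm7 had differences of 0.27 to 0.69, and none passed. Gins2, a subunit of the GINS complex that the fork needs, had the lowest mean of the role over the 8 libraries. It was at 9.96 and 8.56 TPM against 8.35 and 7.24 TPM (-0.23, SE 0.15, limma adjusted p = 0.253). Gins2 overlaps Gse1 on the other strand (2758 bases, mean 33.5 TPM), and Gse1 was also lower in vehicle_b, so reads may be shared.

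None of the 3 deoxynucleotide genes passed. Rrm2 was at 384.4 and 281.1 TPM in vehicle_a and at 432.6 and 365.5 TPM in vehicle_b, with overlapping groups (0.27, SE 0.24, limma adjusted p = 0.392). Tyms, thymidylate synthase, was at 17.3 and 10.9 TPM against 18.3 and 16.7 TPM, also overlapping (0.33, SE 0.25, limma adjusted p = 0.335). Tyms-ps, a pseudogene, was listed at a mean of 7.31 TPM, so reads of Tyms may be shared with it. Rrm1, the large subunit of the reductase, differed by -0.06.

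The cyclins and their kinases were divided, with a median of -0.08 and 2 of 7 genes passing, both lower. Ccnb2, a B-type cyclin of mitosis (chromosome 9, 70314974 to 70328829), was at 43.6 and 45.9 TPM in vehicle_a and at 31.1 and 25.6 TPM in vehicle_b. It was the 1 gene whose isolation 54 value was not below that of isolation 48, and its groups did not overlap (-0.65, SE 0.14, limma adjusted p = 0.0241). Cdk2, the kinase of cyclins E and A (chromosome 10, 128533808 to 128540899), was at 37.8 and 34.4 TPM against 24.9 and 22.4 TPM. Here too the groups were apart (-0.60, SE 0.14, limma adjusted p = 0.0275), but the call was lost with voom on estimated reads (-0.49, adjusted p = 0.0623). Ccne2, a cyclin of the entry into S phase, had the lowest mean of the role over the 8 libraries and was at 12.2 and 6.86 TPM against 20.4 and 17.2 TPM, and missed the threshold (0.99, SE 0.35, limma adjusted p = 0.0736). The other E cyclin, Ccne1, differed by -0.28. Ccnb1, the most abundant gene of the role, was at 80.7 and 59.0 TPM against 93.7 and 85.4 TPM (0.37, SE 0.25, limma adjusted p = 0.274). Ccnb1-ps, a processed copy, was listed at a mean of 75.6 TPM, so reads of Ccnb1 may be shared with it.

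Among the 4 transcription factors, E2f2 passed. E2f2, an activating E2F (chromosome 4, 135899705 to 135923368), was at 34.1 and 23.2 TPM in vehicle_a and at 16.4 and 15.5 TPM in vehicle_b. The groups did not overlap, and isolation 48 was the highest (-0.80, SE 0.18, limma adjusted p = 0.0276). The call was lost with voom (-0.71, adjusted p = 0.0524), with the isolation as a random effect (limma adjusted p = 0.0532) and with the 4 vehicle libraries alone (limma adjusted p = 0.0622). E2f1, the other activating E2F listed, was at 17.8 and 13.8 TPM against 16.4 and 15.7 TPM (0.03, SE 0.20, limma adjusted p = 0.921). Mybl2 was at 16.0 and 7.05 TPM against 22.8 and 18.9 TPM. Its vehicle_a libraries lay far apart, and the difference of 0.93 did not pass (SE 0.47, limma adjusted p = 0.168). Foxm1 differed by -0.19.

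In the mitotic kinase and checkpoint list 1 of 9 genes passed, and the median was 0.04. Chek1, the kinase that halts the cycle when forks stall (chromosome 9, 36619778 to 36637954), was at 6.22 and 3.09 TPM in vehicle_a and at 13.8 and 19.4 TPM in vehicle_b. It had the largest difference of the 39 genes (1.78, SE 0.41, limma adjusted p = 0.0279). Birc5, the survivin subunit of the chromosomal passenger complex, was at 89.7 and 69.8 TPM against 108.2 and 107.5 TPM without passing (0.45, SE 0.19, limma adjusted p = 0.12). Cdc25c was at 10.6 and 8.96 TPM against 10.2 and 9.28 TPM (0.00, SE 0.14, limma adjusted p = 0.992). The kinases Plk1, Aurka and Aurkb differed by 0.06, 0.02 and 0.04.

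No chromosome, centromere or spindle gene passed, and their median was 0.25. Top2a, which untangles sister chromatids, was at 99.5 and 70.0 TPM in vehicle_a and at 105.9 and 100.5 TPM in vehicle_b (0.31, SE 0.24, limma adjusted p = 0.346). Kif11, the motor that pushes spindle poles apart, was at 38.2 and 26.5 TPM against 42.3 and 42.0 TPM (0.40, SE 0.24, limma adjusted p = 0.241). Cenpf, a kinetochore protein, was at 13.3 and 10.8 TPM against 14.1 and 13.6 TPM (0.20, SE 0.17, limma adjusted p = 0.382). In all 3 genes isolation 54 alone was low. Kif11 overlaps Gm46649 on the other strand (406 bases, mean 238.5 TPM) and Gm8663 (946 bases, mean 41.2 TPM), and Cenpf overlaps Gm37239 (141 bases, mean 12.4 TPM), so reads may be shared. Mki67, the common marker of dividing cells, differed by -0.08.

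**Figure D3:**
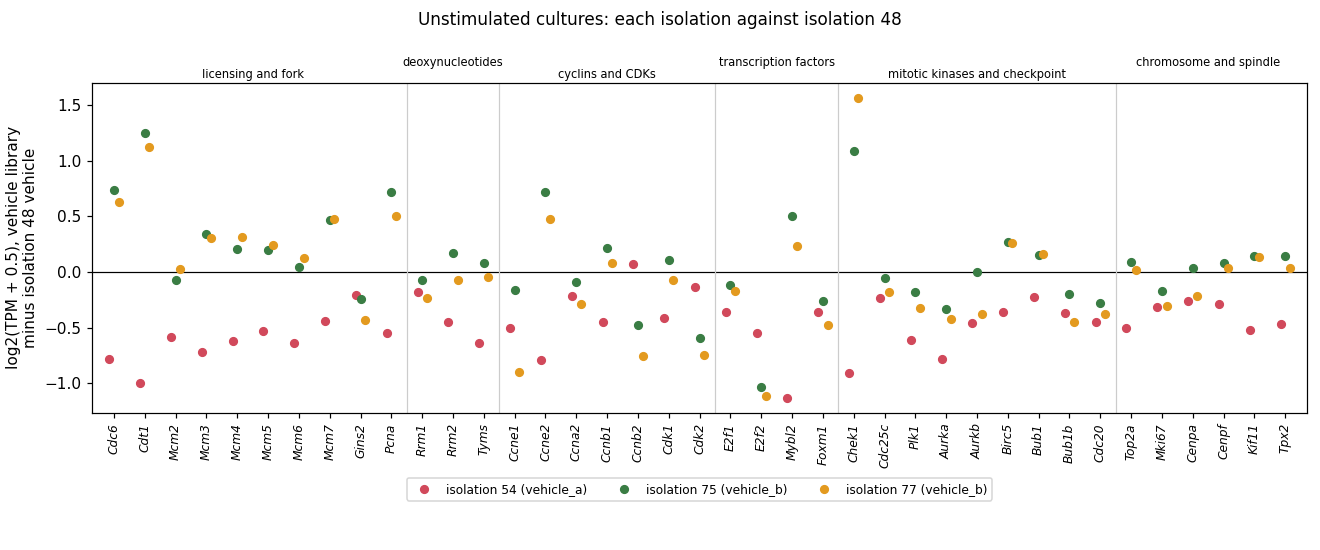
Level of each gene in the vehicle library of isolations 54, 75 and 77 minus that of isolation 48, as log2(TPM + 0.5). Isolation 54 is below the zero line in 38 of 39 genes, while isolations 75 and 77 lie above it for most licensing and fork genes and below it for Ccnb2, Cdk2 and E2f2.

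Much of this comparison rests on single libraries, and its fit took the vehicle and the BMP library of an isolation as independent. With the vehicle library of isolation 54 left out, 1 gene passed (E2f2) and the median was 0.02. The mean of isolations 75 and 77 against isolation 48 alone was above 0 for 21 of 39 genes. Without the vehicle_b library of isolation 75 and without that of isolation 77, 0 genes passed by limma (5 and 7 at an unadjusted p of 0.05). Leaving out the BMP6 library of isolation 75 or that of isolation 77 left 2 genes, as did using no filter on low loci, where Cdt1, Chek1, Cdc6 and E2f2 lost the call (limma adjusted p = 0.0662, 0.0621, 0.0988 and 0.0538). The higher share of all called loci was 39.1%, and 54.4% after scaling libraries to a common median or 51.9% after quantile normalization.

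The list of other S phase genes had a median of 0.49, 30 of 32 positive, 4 higher and 1 lower (5 of 32, 15.6%, all loci 27.2%). The gene that fell was E2f8, a repressive E2F, at 39.3 and 66.0 TPM in vehicle_a and 15.5 and 10.4 TPM in vehicle_b (-1.96, SE 0.40, limma adjusted p = 0.0218). Cdca7, a chromatin factor of S phase, had the largest positive value without passing, at 14.2 and 4.29 TPM against 23.6 and 34.3 TPM (1.79, SE 0.61, limma adjusted p = 0.0689). Of 40 other G2 and M phase genes 3 passed (all loci 27.2%), 2 higher and 1 lower, with a median of 0.15. Smc4, a condensin subunit, was at 60.9 and 45.8 TPM against 97.6 and 110.8 TPM (0.97, SE 0.21, limma adjusted p = 0.0248). Jpt1 was at 117.7 and 195.7 TPM against 95.8 and 75.6 TPM without passing (-0.83, SE 0.36, limma adjusted p = 0.124).

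In the list of inhibitors and pocket proteins, which also holds E2f4, E2f7, Lin9 and Lin54, 9 of 14 passed (64.3%, all loci 27.2%). Of these, 7 were lower (all loci 16.6%) and 2 higher (all loci 10.6%). Cdkn1c, the inhibitor p57, was at 49.9 and 156.1 TPM in vehicle_a and at 5.61 and 4.09 TPM in vehicle_b (-4.07, SE 0.76, limma adjusted p = 0.0177). Rb1, the founding pocket protein, was at 26.0 and 59.5 TPM against 7.19 and 8.84 TPM (-2.23, SE 0.50, limma adjusted p = 0.0265). Both were highest in isolation 54. Beside them, 8 of the 9 differentiation markers fell in vehicle_b, with a median of -3.81. In the vehicle libraries of isolations 48, 54, 75 and 77 the fibro-adipogenic markers summed to 13.7, 12.8, 28.3 and 27.4 TPM. The pericyte and smooth muscle markers summed to 5.29, 12.1, 1.4 and 0.329 TPM, and the muscle stem cell and myoblast markers to 1468.8, 1175.7, 835.4 and 947.4 TPM. The part of these markers in the vehicle comparison was not tested.

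The pulse of BMP was then compared with vehicle. No gene of the 39 passed after BMP4 (0.0237% of all loci did), after BMP6 (0.0118%), for the mean of both responses (0.071%) or for their difference (0%), by limma with 4 group means. At an unadjusted p of 0.05 the counts were 0, 1, 1 and 0 genes, and voom on estimated reads in the same design also gave 0 in each. The SEs of this design, 0.13 to 0.47 for a single ligand, hold the spread between isolations. The vehicle and the BMP library of one isolation deviated from their group means together, so the isolation was also fitted as a block, which brought the SEs to 0.04 to 0.11. These SEs rest on 2 isolations per ligand. Their spread is shared between the ligands and partly drawn from all loci. Again no gene passed after BMP4 (0.633% of all loci did), after BMP6 (0.148%), for the mean (0.674%) or for the difference (0%). In the blocked fit 16, 4, 15 and 9 of the 39 genes were under an unadjusted p of 0.05, where 3439, 967, 2263 and 2251 of all loci were. A weighted fit of the estimated reads by voom with the same block called 6 genes after BMP4 (6.15% of all loci), 1 after BMP6 (0.432%), 3 for the mean (2.05%) and 0 for the difference (0.177%, with 10 genes under an unadjusted p of 0.05). The genes named from that fit were chosen after their values were seen.

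After BMP4 the transcription factors and mitotic kinases stood a little below vehicle. The median of the 39 genes was -0.08 (all loci -0.02), with 31 of 39 values below 0. In both isolations 21 genes were lower (53.8%, all loci 35%) and 6 were higher (15.4%, all loci 28.3%). All 4 transcription factors were lower in both isolations, as were 6 of 9 mitotic kinase and checkpoint genes and 4 of 6 chromosome genes. Of the cyclins and their kinases 4 of 7 were, of the deoxynucleotide genes 1 of 3, and of the licensing and fork genes 2 of 10. The medians of the transcription factor, mitotic kinase, chromosome and licensing lists were -0.23, -0.17, -0.11 and -0.02. Among 40 other G2 and M phase genes 28 were lower in both isolations, with a median of -0.10, and among 32 other S phase genes 12 were, with a median of -0.02.

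Aurka, the kinase of the spindle poles, was at 62.1 TPM with vehicle and 49.5 TPM with BMP4 in isolation 48, and at 36 and 29.2 TPM in isolation 54. It was lower in both isolations by nearly the same step (log2 -0.33 and -0.30). The blocked estimate was -0.31 (SE 0.04, limma adjusted p = 0.056), and voom with the block gave -0.32 (adjusted p = 0.0136). Plk1, the polo kinase of mitotic entry, went from 72.9 to 60.2 and from 47.4 to 38.4 TPM (blocked -0.29, SE 0.05, limma adjusted p = 0.0875, voom 0.0209). Cdc20, which activates the anaphase-promoting complex, went from 116.2 to 99.1 and from 85 to 69.8 TPM (-0.25, SE 0.04, limma adjusted p = 0.0745, voom 0.0169). Foxm1 went from 25.7 to 21.1 and from 19.9 to 16.2 TPM (-0.28, SE 0.05, limma adjusted p = 0.0915, voom 0.0142). Aurkb, the kinase of the passenger complex, went from 37.8 to 30.4 and from 27.3 to 24.1 TPM (-0.24, SE 0.05, limma adjusted p = 0.125, voom 0.0446). These 5 are the genes that voom with the block called lower (2.67% of all loci were). In each, the vehicle library of isolation 54 was below the BMP4 library of isolation 48, so the groups overlap when isolations are ignored. E2f2 had the largest single value, from 34.1 to 21.7 TPM in isolation 48, but from 23.2 to 20.3 TPM in isolation 54 (blocked -0.41, SE 0.11, limma adjusted p = 0.158).

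After BMP6 the same 5 mitotic genes stayed near vehicle. Aurka went from 49.3 to 52.2 TPM in isolation 75 and from 46.3 to 49.1 TPM in isolation 77. Plk1 went from 64.3 to 69.5 and from 58.1 to 57.4 TPM, and Foxm1 from 21.4 to 22.4 and from 18.3 to 18.5 TPM. Cdc20 went from 95.7 to 97.8 and from 89.3 to 88.6 TPM, and Aurkb from 37.7 to 37.1 and from 28.9 to 29.0 TPM. The difference of the responses, BMP6 minus BMP4, was 0.39 for Aurka (SE 0.05, limma adjusted p = 0.235 with the block) and 0.33 for Plk1 (SE 0.07, limma adjusted p = 0.274 with the block), so the ligands were not shown to differ. Over the 39 genes the BMP6 median was -0.02 (all loci 0.00), with 9 genes higher in both isolations (23.1%, all loci 26.7%) and 11 lower in both (28.2%, all loci 27.1%).

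**Figure D4:**
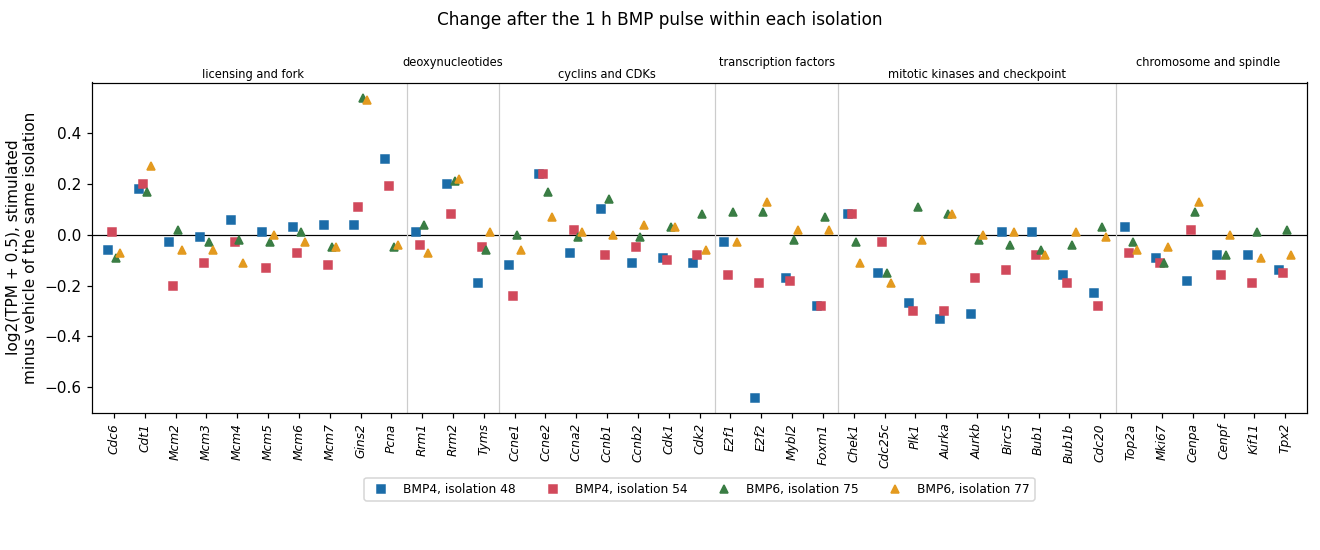
Change of each gene after the pulse within each isolation, as log2(TPM + 0.5) of the BMP library minus the vehicle library. Squares are BMP4 and triangles BMP6. Aurka, Plk1, Cdc20 and Foxm1 lie between -0.33 and -0.23 in both BMP4 isolations and between -0.02 and 0.11 in both BMP6 isolations.

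In 4 of 4 isolations 4 genes stood above vehicle (10.3%, all loci 8.19%) and 4 below (10.3%, all loci 9.2%), shares near the background. Those above were Ccne2, Cdt1, Gins2 and Rrm2, and those below were Ccne1, Cdc25c, Mcm3 and Mki67. Rrm2 went from 384.4 to 443.2, from 281.1 to 297.9, from 432.6 to 498.7 and from 365.5 to 426.7 TPM in isolations 48, 54, 75 and 77. Its mean change was 0.18 with the block (SE 0.03, limma adjusted p = 0.102, voom 0.0252). Cdt1 went from 25.6 to 29.2, from 12.6 to 14.5, from 61.6 to 69.4 and from 56.2 to 68.0 TPM, a step of similar log2 size (0.17 to 0.27) from very different starting levels (blocked mean 0.21, SE 0.03, limma adjusted p = 0.106, voom 0.0499). Ccne2 went from 12.2 to 14.6, from 6.86 to 8.22, from 20.4 to 22.9 and from 17.2 to 18 TPM (0.18, SE 0.04, limma adjusted p = 0.196, voom 0.0809). Ccne2 overlaps Ints8 on the other strand by 5622 bases, and Ints8 itself had a mean change of 0.04. Cdc25c went from 10.6 to 9.45, from 8.96 to 8.78, from 10.2 to 9.15 and from 9.28 to 8.08 TPM (-0.13, SE 0.05, limma adjusted p = 0.339). It overlaps Gm3550 on the other strand by 1656 bases (mean 7.9 TPM).

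Gins2 had the largest change after BMP6, from 8.35 to 12.4 TPM in isolation 75 and from 7.24 to 10.7 TPM in isolation 77, with groups that did not overlap. After BMP4 it went from 9.96 to 10.3 and from 8.56 to 9.29 TPM. The BMP6 estimate was 0.54 (blocked SE 0.06, limma adjusted p = 0.103), and voom with the block called it after BMP6 (0.56, adjusted p = 0.0166; 0.39% of all loci were called higher) and for the mean (0.32, adjusted p = 0.0141; 1.73% of all loci were called higher). Gins2 shares 2758 bases with Gse1, a gene on the other strand, and the quantification was run with no option for the strand. Gse1 went from 11.9 to 33.5 and from 8.39 to 34.1 TPM after BMP6 and from 30.5 to 56.6 and from 28.0 to 65.5 TPM after BMP4 (mean 1.38, SE 0.12, limma adjusted p = 0.0277). The part of Gse1 reads in the Gins2 value was not tested.

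Pcna was the 1 gene that voom with the block called higher after BMP4 (3.47% of all loci were). It went from 125.1 to 153.8 and from 85.2 to 97.6 TPM (blocked 0.25, SE 0.04, limma adjusted p = 0.0843, voom 0.0239), while after BMP6 it went from 206.0 to 199.1 and from 177.1 to 172.6 TPM. AV099323 overlaps the start of the Pcna gene by 512 bases on the other strand. In the same BMP4 libraries AV099323 went from 29.4 to 5.07 and from 21.8 to 0.129 TPM, and in the BMP6 experiment from 33.7 to 36.3 and from 32.3 to 32.1 TPM. The processed copy Pcna-ps2 went from 140.7 to 154.5 and from 95.9 to 98.3 TPM after BMP4. The part of either locus in the Pcna value was not tested.

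**Figure D5:**
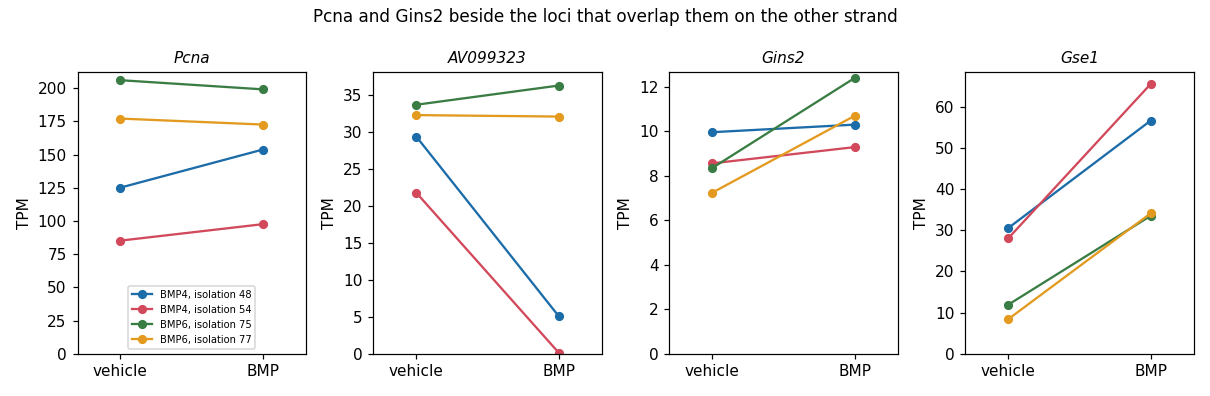
TPM with vehicle and with BMP of Pcna and Gins2 and of AV099323 and Gse1, the loci on the other strand that overlap them, with 1 line per isolation. Pcna is higher after BMP4 in the isolations where AV099323 is lower, and Gins2 and Gse1 are higher after BMP in all 4 isolations.

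The other members had small values. Tyms went from 17.3 to 15.2 and from 10.9 to 10.5 TPM after BMP4 and from 18.3 to 17.5 and from 16.7 to 16.8 TPM after BMP6. Chek1 went from 6.22 to 6.58 and from 3.09 to 3.28 TPM after BMP4 and from 13.8 to 13.5 and from 19.4 to 18 TPM after BMP6. Cdc6 went from 8.69 to 8.31 and from 4.84 to 4.86 TPM after BMP4 and from 14.8 to 13.9 and from 13.7 to 13.0 TPM after BMP6. Chek1 and Cdc6 thus lay much closer to their own vehicle than the vehicle cultures did to each other. Ccnb2 went from 43.6 to 40.2 and from 45.9 to 44.4 TPM, and then from 31.1 to 30.9 and from 25.6 to 26.3 TPM. Cdk2 went from 37.8 to 35 and from 34.4 to 32.6 TPM, and then from 24.9 to 26.3 and from 22.4 to 21.5 TPM. Mybl2 went from 16.0 to 14.2 and from 7.05 to 6.15 TPM after BMP4, the same log2 step in both isolations (-0.17 and -0.18), and from 22.8 to 22.6 and from 18.9 to 19.1 TPM after BMP6. Top2a, Kif11 and Cenpf had mean changes of -0.03, -0.09 and -0.08, E2f1, Birc5 and Ccnb1 of -0.03, -0.04 and 0.04. The helicase subunits Mcm2 to Mcm7 had mean changes of -0.07 to -0.01.

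The other lists also had mostly small values. None of 32 S phase genes, 40 G2 and M phase genes or 14 inhibitors and pocket proteins passed for either ligand by limma, in the design with or without the block, although 7, 17 and 4 of them had an unadjusted p under 0.05 after BMP4 with the block, and 0, 0 and 2 after BMP6. Voom with the block called 1, 5 and 3 of them after BMP4 (6.15% of all loci) and 0 in each list after BMP6 (0.432% of all loci). The counts of all loci under an unadjusted p of 0.05 stand with the blocked fit above. For the mean of both responses 1 inhibitor passed with the block (0.674% of all loci did). This was Cdkn2b, the inhibitor p15, which went from 20.1 to 14.9, from 15.1 to 10.9, from 30.7 to 25.2 and from 42.1 to 37.3 TPM (-0.33, SE 0.04, limma adjusted p = 0.0446). It was lower with BMP in all 4 isolations. Gmnn, which blocks CDT1, had a mean change of -0.23, and Dtl, which marks CDT1 for destruction, one of 0.19. Pimreg and Cdca2, both mitotic, had mean changes of -0.21, and Rb1 one of 0.14. The differentiation markers had medians of -0.09 after BMP4 and 0.10 after BMP6, and none passed by limma (0 and 1 at an unadjusted p of 0.05 with the block, and 1 call after BMP4 by voom with the block). The BMP6 isolations disagreed. In isolation 75 the median was 0.32 with 9 of 9 markers higher, and in isolation 77 it was -0.04 with 7 of 9 lower.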

How the data were processed

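Poly(A) RNA of 8 cultures was made into strand-specific libraries from 500 ng RNA and read as 50 nt single ends, per the labels' protocols. The submitters' processing notes name STAR 2.7.11a, SAMtools 1.17 and GRCm39. The authors made the TPM values with StringTie 2.2.1 on their merged annotation, with no correction for multiply mapped reads and no strand option, per the file headers, so paralogs, pseudogenes and overlapping loci can share reads. TPM are shares, so a rise of some genes lowers others. Other deposited transcript fields (coverage) served to estimate reads.

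Groups came from the treatment labels, and the joint table matched each library's own TPM in all 55223 rows within 1e-05. limma 3.58.1 (R 4.3.3) was fitted to log2(TPM + 0.5) of 16908 loci whose mean TPM reached 0.5, with 4 group means and a variance trend. This scale understates changes of low genes. P values are two-sided, Benjamini-Hochberg adjusted over all loci, threshold 0.05. The script was tested on simulated data. The labels pair vehicle and BMP libraries by isolation, and paired deviations correlated at 0.707 and 0.455, so the isolation was also a block. Isolations are nested in experiments, so the vehicle comparison has no block. Its fit takes the vehicle and the BMP library of an isolation as independent, although the consensus correlation within isolations was 0.829. Its p values thus count more independent libraries than there are isolations. Values of every library are given for genes that passed and for the highest, the lowest and the most different gene of each role. The members, lists and rules were chosen with earlier results of these data known.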

Additional observations from a re-analysis of the deposited data

How the results depend on the processing

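The count of genes passing between the vehicle cultures was 6 and moved to 2 with no filter on low loci. Over the fits that left out 1 library it ran from 0 to 9: 8 without vehicle_a of isolation 48, 1 without vehicle_a of isolation 54, 0 when one vehicle_b library was dropped, 2 when one BMP6 library was and 9 when one BMP4 library was. Other pseudocounts, filters, scalings, voom, the 4 vehicle libraries alone and the isolation as a random effect gave 4 to 8. With voom the median of all loci was 0.10 in place of -0.01, and that of the 39 genes 0.38 in place of 0.27. With the replicate block, which pairs vehicle and BMP libraries by isolation, the counts for BMP4, BMP6, their mean and their difference remained 0. With voom on estimated reads and the block they were 6, 1, 3 and 0, and with quantile normalization and the block, chosen after seeing the data, 1 gene (Aurka, adjusted p = 0.0495) passed after BMP4. Leaving out 1 library with no block left single isolations unpaired: Aurka then ran from -0.70 to 0.08, Plk1 from -0.61 to 0.03 and Pcna from -0.08 to 0.57 after BMP4, and Cdt1 from -0.04 to 0.46 for the mean. The signs turned when a library of isolation 48 or 54 was left out, and none of these values passed. With whole isolations left out of the blocked fit, Aurka ran from -0.33 to -0.30 and Pcna from 0.19 to 0.30. The ends of these ranges are the differences within isolations 48 and 54 themselves, so this is no further check of stability. Each ligand rests on 2 isolations.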
